A study of Mus musculus with 4 samples.

Results

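Messenger RNA levels of 7 orphan nuclear receptor genes, Nr2f1, Nr2f2, Nr2f6, Nr2e1, Nr2c1, Nr2c2 and Nr6a1, were examined in mouse forebrain at E10.5, with and without conditional loss of the chromatin remodeller gene Chd7. The 7 genes were chosen by symbol from the 24982 of the raw count table, with the cKO to control difference of these same libraries in view. Their fold changes are therefore given as a description, with no p-value, and how many of them a test called is stated once as a count from which nothing is read. The forebrain was micro-dissected from embryos of that day, and polyA RNA was sequenced. In the 2 control libraries the genotype is given as Chd7 +/f, that is, 1 of the Chd7 alleles is floxed, and a Cre is not mentioned. The 2 conditional knockout (cKO) libraries are labelled Sox1 cre+/-; Chd7 f/f, a Cre named for a gene of early neural progenitors, so the Cre allele and the loss of Chd7 cannot be told apart. The sources used here do not say whether embryos were pooled for a library, so the spread between replicates may be technical in part.

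Nuclear receptors are transcription factors that bind DNA through a pair of zinc fingers, and many are switched by a small lipophilic ligand. Orphan receptors are those for which no natural ligand was known when they were named. Nr2f1 and Nr2f2 (COUP-TFI and COUP-TFII) pattern the areas of the telencephalon and its ventral eminences, Nr2f2 also acts in venous endothelium and mesenchyme, and Nr2f6 is their closest relative. Nr2e1 (Tlx) is a repressor that keeps neural progenitors dividing. Nr2c1 and Nr2c2 (TR2 and TR4) are broadly expressed and pair with each other on embryonic globin promoters, and Nr6a1 (germ cell nuclear factor) silences pluripotency genes in the early embryo.

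The sequences coding for the first zinc finger are shown because they set out how the members are related. Each runs from the first cysteine codon of the finger to the end of the P box, the residues that read the DNA bases, and the P box codons are in capitals (GENCODE M21 transcripts on GRCm38, 69 bases each, 5′ to 3′ on the coding strand). They lie at chr13:78198259-78198327 for Nr2f1, chr7:70360027-70360095 for Nr2f2, chr8:71381035-71381103 for Nr2f6, chr10:42578223-42578291 for Nr2e1 and chr2:38760326-38760394 for Nr6a1, all on the minus strand and each in 1 exon. Those of Nr2c1 (chr10:94163780-94165458) and Nr2c2 (chr6:92152390-92154375), on the plus strand, are interrupted by an intron.
Nr2f1: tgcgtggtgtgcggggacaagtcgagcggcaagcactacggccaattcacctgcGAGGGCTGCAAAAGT
Nr2f2: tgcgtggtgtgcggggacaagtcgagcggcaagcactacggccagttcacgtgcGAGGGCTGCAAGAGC
Nr2f6: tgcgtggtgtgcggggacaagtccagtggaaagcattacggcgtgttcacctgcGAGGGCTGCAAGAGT
Nr2e1: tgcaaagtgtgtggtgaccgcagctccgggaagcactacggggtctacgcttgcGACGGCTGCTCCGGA
Nr2c1: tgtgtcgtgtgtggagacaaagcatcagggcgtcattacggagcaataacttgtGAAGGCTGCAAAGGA
Nr2c2: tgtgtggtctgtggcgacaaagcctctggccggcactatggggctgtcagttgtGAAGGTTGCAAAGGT
Nr6a1: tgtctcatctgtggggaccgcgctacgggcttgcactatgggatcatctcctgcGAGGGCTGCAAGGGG

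The P box codons of Nr2f1, Nr2f2 and Nr2f6 encode the same residues, as do those of Nr2c1, Nr2c2 and Nr6a1, and those of Nr2e1 match no other member. Of the 69 finger bases, 65 were identical between Nr2f1 and Nr2f2, and 42 between Nr2f1 and Nr2e1. Over the whole coding sequence, Nr2f1 and Nr2f2 shared 83.2% of 1227 aligned bases, and Nr2c1 and Nr2c2 shared 64.6% of 1737. The longest stretch identical between any transcripts of Nr2f1 and Nr2f2 was 59 bases, so reads inside such stretches could match both genes if they are no longer than that. The sources used here give no read length.

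The libraries held 16581252 to 17096522 counts. The targeted gene Chd7 measured 339 and 345 CPM (counts scaled to a common library total) in the control and 136 and 132 CPM in the cKO libraries, which is −1.35 as log2 fold change, cKO over control (SE 0.05, edgeR adjusted p = 8.7e-05). Its counts cover all exons, and the sources used here do not name the floxed exon. All 7 receptor genes passed the filter on low counts. Among 14235 genes tested, 2.13% were called lower in the cKO and 1.57% were called higher, by the quasi-likelihood test of edgeR with adjusted p-values held under 0.05. Of the 7 members, Nr2f1 and Nr2e1 were among those called lower and none among those called higher. In edgeR 1 member was higher and 3 were lower at an unadjusted p under 0.05, against 1200 and 1295 of all genes tested. DESeq2 and limma-voom each also called 2 lower and 0 higher. The groups did not overlap in 4 of the 7 members, against 48.3% of all genes tested. The contrast was used in choosing the members, so nothing is read from these shares.

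Per length, Nr2f1 and Nr2e1 had the highest levels of the 7 in the control forebrain, and 4 receptors lay close together in the cKO. In CPM per kb of exon, the control means were 75.8 for Nr2f1, 60.5 for Nr2e1, 42.2 for Nr2f2, 27.6 for Nr2f6, 8.03 for Nr2c2, 7.19 for Nr2c1 and 5.10 for Nr6a1. The 2 control libraries of each gene did not overlap those of the next gene in this order. In the cKO the means were 35.4 for Nr2f2, 34.5 for Nr2e1, 33.0 for Nr2f6 and 30.7 for Nr2f1, and the libraries of these neighbours in the order overlapped, except that both Nr2f6 libraries (32.1 and 34.0) lay just above both Nr2f1 libraries (31.7 and 29.8). Nr2c2, at 7.73, Nr2c1, at 6.91, and Nr6a1, at 5.56, came below them. The order depends on the exon length used. With the exons of all GENCODE transcripts, an alternative chosen after seeing the data, the control means were 53.5 for Nr2e1 and 47.7 for Nr2f1. The cKO means of the upper 4 were then 30.6 for Nr2e1, 24.6 for Nr2f6, 20 for Nr2f2 and 19.3 for Nr2f1. Nr2c1 then lay above Nr2c2, with means of 5.82 against 4.11 in the control and 5.6 against 3.96 in the cKO.

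**Figure D1:**
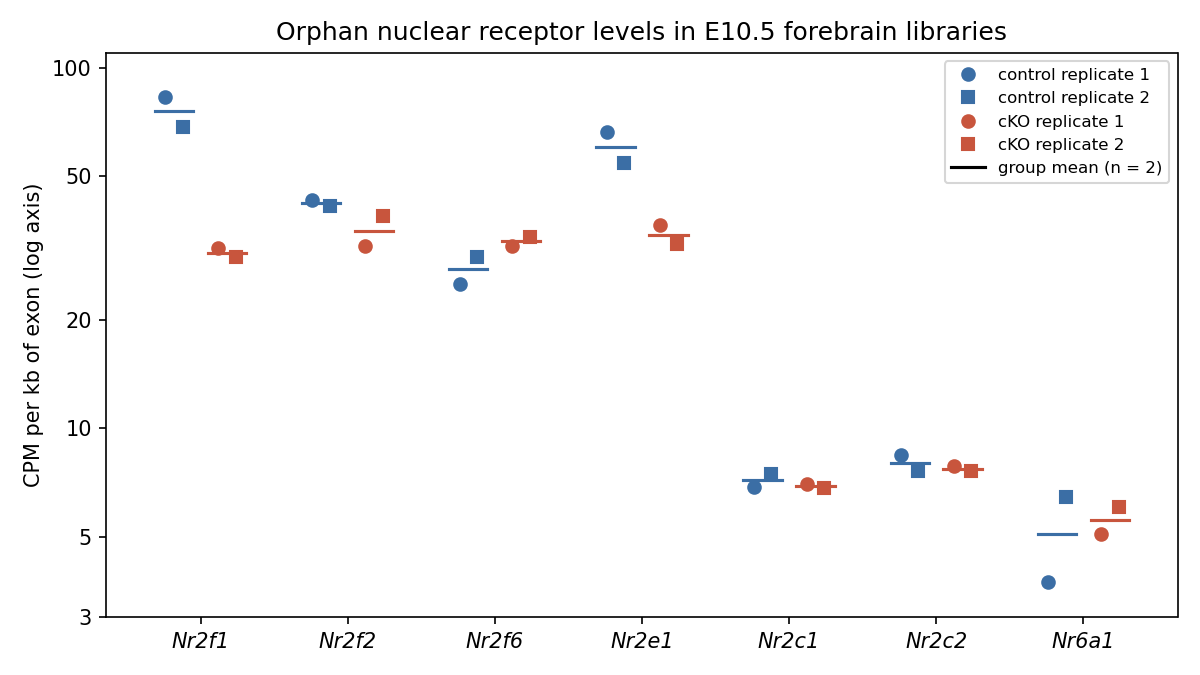
Level of each receptor gene in CPM per kb of exon (log axis); points are the 4 libraries and lines the group means (n = 2). Nr2f1 lies at 83.1 and 68.4 in the control and 31.7 and 29.8 in the cKO libraries, while Nr2c1 stays between 6.82 and 7.48 in all 4.

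Nr2f1 (chromosome 13, 78188971 to 78198873), the COUP-TF of the caudal and lateral telencephalon, had the lowest log2 fold change of the members. The controls (replicates 1 and 2) measured 267 and 219 CPM, and the cKO libraries 102 and 95.4 CPM. Both cKO libraries were far below both controls, and the 2 cKO libraries were closer to each other than the 2 controls were. The group means were 243 ± 33 and 98.5 ± 4.4 CPM (SD, n = 2), which left the cKO at 40.5% of the control. The log2 fold change was −1.30 (SE 0.09), a level 2.47-fold lower. Of all genes tested, 187 had a log2 fold change at or below it, Nr2f1 included. Without any 1 library the value ranged from −1.44 to −1.15.

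Nr2e1 (chromosome 10, 42561963 to 42583590), the progenitor repressor, was also lower in both cKO libraries. Its levels were 218 and 179 CPM in control replicates 1 and 2 and 121 and 106 CPM in cKO replicates 1 and 2. In each group replicate 1 was the higher, and the lower control still exceeded the higher cKO library by 0.57 on the log2 scale. The means were 199 ± 28 and 113 ± 10 CPM, 57.1% of the control, with a log2 fold change of −0.81 (SE 0.10). Leaving out a library moved it between −0.94 and −0.66.

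The summed levels of telencephalon, neuron, subpallium and diencephalon markers were lower in the cKO libraries, as were both genes. These lists too were chosen with earlier results of these data known. Of 5 telencephalon markers 3 were called lower and 0 higher by edgeR, DESeq2 and limma-voom, with 0 higher at an unadjusted p as well. Their summed level was 610 to 799 CPM in the control and 396 to 482 CPM in the cKO libraries, and none of the 5 was at 0. Emx1 and Emx2 of this list changed little (log2 fold changes −0.05 and −0.08). Among 12 neuron markers edgeR called 4 lower, DESeq2 6 and limma-voom 3, and 0 were higher by these tools or at an unadjusted p, with sums of 915 to 1098 and 636 to 656 CPM and none at 0. Of 12 subpallium markers edgeR and limma-voom called 7 lower and DESeq2 9, and 0 were higher by the same measures (167 to 172 against 69 to 70.5 CPM, none at 0). Of 8 diencephalon markers 3 were called lower and 0 higher by each of the 3 tools, with 1 higher at an unadjusted p (288 and 300 against 163 to 193 CPM, none at 0). The largest part of this sum in each library was Tcf7l2, named after its values were seen. It had 142 and 156 CPM in the control and 61.5 and 59.5 CPM in the cKO libraries. Gbx2 (0.99), Irx3 (0.27) and Irx5 (0.01) of this list had positive log2 fold changes. Eye field markers were higher in sum in the cKO libraries, at 80.1 and 69.4 CPM against 45.0 and 62.5 CPM in the control. Of 5 tested eye field markers edgeR and limma-voom called 0, and DESeq2 called 2 higher. The part of these changes in the values of Nr2f1 and Nr2e1 was not tested, and in bulk tissue fewer cells of a type and less RNA per cell cannot be told apart.

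Nr2f2 (chromosome 7, 70351946 to 70366746), the closest relative of Nr2f1, differed little between the groups. It stood at 209 and 202 CPM in the controls and at 156 and 189 CPM in cKO replicates 1 and 2. The groups did not overlap, but the cKO libraries differed from each other by more than cKO replicate 2 did from the controls. The means of 205 ± 5.3 and 172 ± 24 CPM gave a log2 fold change of −0.25 (SE 0.09). Without cKO replicate 2 it was −0.40, and without cKO replicate 1 it was −0.12. Markers of tissues in which Nr2f2 is also known were present. Endothelial markers summed to 404 to 416 CPM in control and 360 to 364 CPM in cKO libraries. Of these 14 markers, 0 were called by edgeR, DESeq2 or limma-voom. At an unadjusted p under 0.05 in edgeR, 6 were lower and 1 higher. Mesenchyme markers summed to 1100 and 1252 CPM in the controls and to 1144 and 741 CPM in cKO replicates 1 and 2, with 1 of 17, Foxd1, called lower by edgeR, 3 by DESeq2 and 2 by limma-voom. None of the 31 markers was at 0, and their part in the Nr2f2 value was not tested.

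Nr2f6 (chromosome 8, 71374118 to 71381967), the more distant COUP-TF relative, was the member with the highest log2 fold change. Its levels were 55.9 and 66.4 CPM in the controls and 71.2 and 75.3 CPM in the cKO libraries. The groups did not overlap, by a gap of 0.10 on the log2 scale between control replicate 2 and cKO replicate 1. The log2 fold change was 0.26 (SE 0.09). Without control replicate 2 it was 0.39, and without control replicate 1 it was 0.14.

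The makeup of Nr2f transcripts thus differed between the groups, and the 3 genes can be set side by side per length. Nr2f1 made up 54.9% and 48.9% of their summed CPM per kb in the controls and 33.1% and 29.0% in the cKO libraries. Nr2f6 went from 16.7% and 21.4% to 33.5% and 33.1%, and Nr2f2 from 28.4% and 29.6% to 33.4% and 37.9%. The sum itself was 151 and 140 CPM per kb in the control and 95.8 and 103 in the cKO libraries. In reads, Nr2f1 had 1.28 and 1.09 counts per Nr2f2 count in the controls and 0.654 and 0.504 in the cKO libraries. Both ratios of the cKO lay below those of the control; the difference between the 2 fold changes was not tested.

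**Figure D2:**
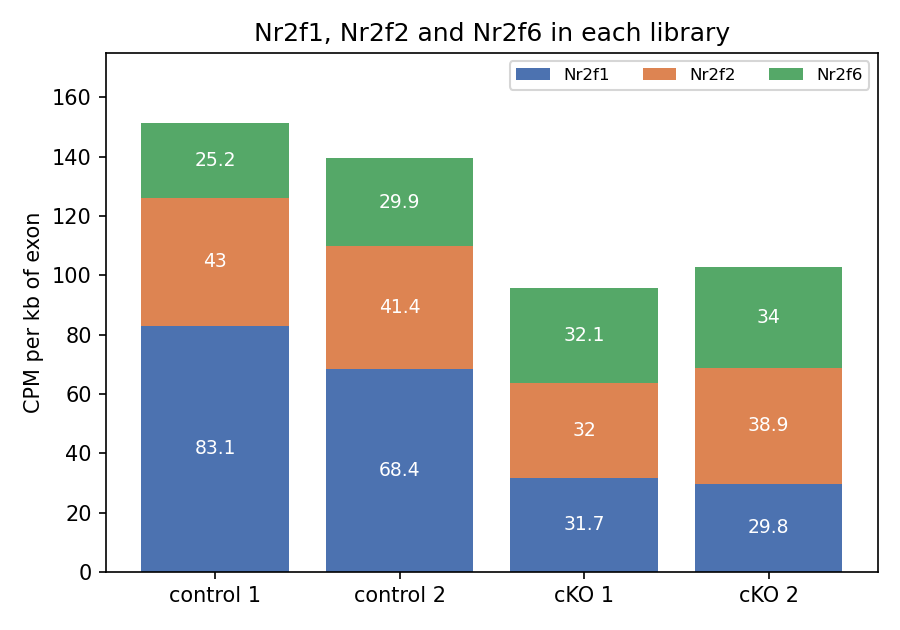
Stacked bars of Nr2f1, Nr2f2 and Nr2f6 in CPM per kb of exon in each of the 4 libraries. The Nr2f1 segment is 83.1 and 68.4 in the control and 31.7 and 29.8 in the cKO libraries. With the exon lengths of RefSeq-matched transcripts drawn here, the 3 segments are of similar height in the cKO.

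Nr2c1 (chromosome 10, 94147542 to 94197216) and Nr2c2 (chromosome 6, 92091418 to 92173058), partners on DNA, had overlapping groups. Nr2c1 was at 25.7 and 27.9 CPM in the control and 26.2 and 25.4 CPM in the cKO libraries, and Nr2c2 at 64.6 and 58.3 and at 60.1 and 58.1 CPM. Both had a log2 fold change of −0.06, with an SE of 0.10 for Nr2c1 and 0.07 for Nr2c2. The level of Nr2c2 is uncertain in 1 respect: 46.2% of its exon bases overlap the opposite-strand gene Mrps25 in GENCODE, and the counting used no strand. For Nr2f6 the overlap was 11.5%, with the opposite-strand gene Ocel1, and for Nr2f1 3.21%, with the long non-coding RNA A830082K12Rik. The spans of Nr2c2 and Mrps25 and of Nr2f1 and A830082K12Rik also overlap in RefSeq. Those of Nr2f6 and Ocel1 are 0.4 kb apart there.

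Nr6a1 (chromosome 2, 38723369 to 38926461), which is known from earlier embryonic stages, varied most between replicates. Control replicates 1 and 2 had 22.8 and 39.0 CPM, and the cKO libraries, at 30.8 and 36.6 CPM, lay between them. The controls differed 1.71-fold, against at most 1.22-fold between replicates of any other member. The log2 fold change of 0.12 (SE 0.22) moved to 0.56 when control replicate 2 was left out, and to −0.21 when control replicate 1 was. Control replicate 1 was also the lowest library for the summed midbrain markers (23.5 CPM, against 43.0 in control replicate 2 and 51.9 to 58.2 in the cKO libraries) and surface ectoderm markers (11.3 CPM, against 36.3 and 33.1 to 46.0). The same library was also the lowest for eye field markers (45.0 CPM), and the highest for telencephalon, neuron, subpallium and endothelial markers. Of the midbrain and surface ectoderm lists, 1 of 4 and 0 of 4 tested members were called by edgeR, and none was at 0 in all libraries. For surface ectoderm DESeq2 and limma-voom each called 1, and 1 passed at an unadjusted p. The part of these tissues in the spread of Nr6a1 was not tested. The summed ventral midline and hypothalamus markers split the replicates otherwise, with 28.5 and 80.8 CPM in the control and 15.5 and 77.6 CPM in the cKO libraries.

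**Figure D3:**
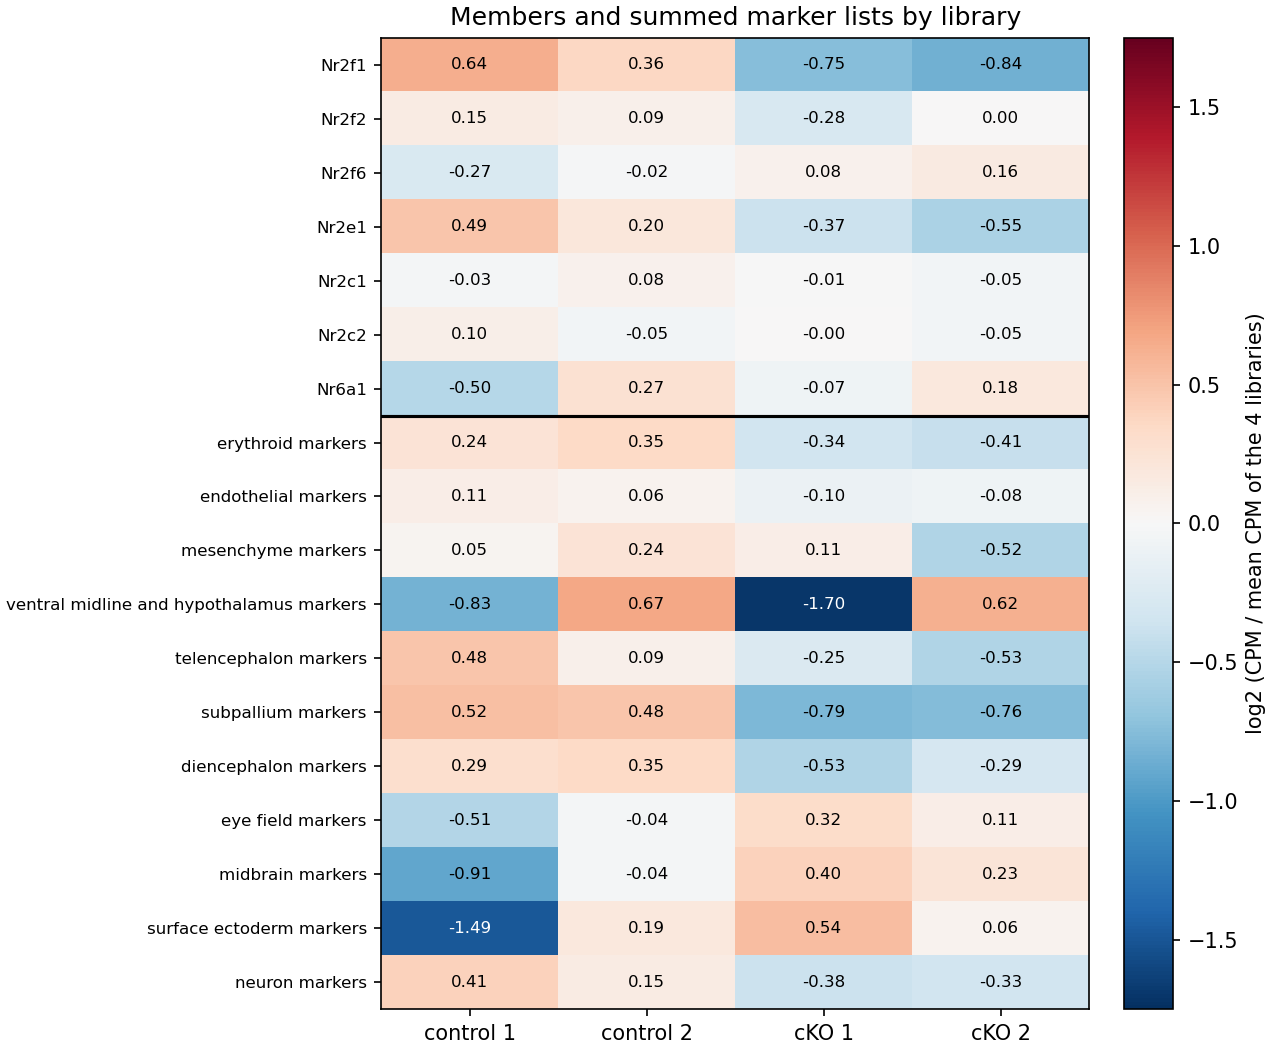
Level of each member and summed level of each marker list in the 4 libraries, as log2 of CPM over the mean of the 4 libraries. Nr2f1 runs from 0.64 and 0.36 in the control to −0.75 and −0.84 in the cKO libraries, and Nr6a1 is lowest, at −0.50, in control replicate 1.

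In the authors' deposited table the log2 fold changes were −1.30 for Nr2f1, −0.81 for Nr2e1, −0.25 for Nr2f2, 0.26 for Nr2f6, −0.06 for Nr2c1 and for Nr2c2, and 0.12 for Nr6a1.

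The rest of the nuclear receptor family was set beside the members. Of 42 other receptor genes 25 passed the count filter, and 2 were called lower and 0 higher, with a median log2 fold change of 0.15 against 0.00 for all genes tested. DESeq2 and limma-voom gave the same counts. At an unadjusted p under 0.05 edgeR had 6 higher and 4 lower, against 1200 and 1295 of all 14235 genes tested. Nr4a2 (Nurr1), an orphan receptor of dopaminergic and early cortical neurons, stood at 24.6 ± 1.0 CPM in the control group and at 14.2 ± 0.74 CPM in the cKO group (−0.79, SE 0.12, edgeR adjusted p = 0.015). Nr4a2 was no longer called when control replicate 1 (adjusted p = 0.056) or cKO replicate 2 (0.074) was left out. Thra, a thyroid hormone receptor, went from 41.7 ± 3.7 to 25.3 ± 1.3 CPM (−0.72, SE 0.10, edgeR adjusted p = 0.012; 0.064 without cKO replicate 2). Without control replicate 2, Esrrg was also called lower and Rxrg higher, both named after their values were seen.

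**Figure D4:**
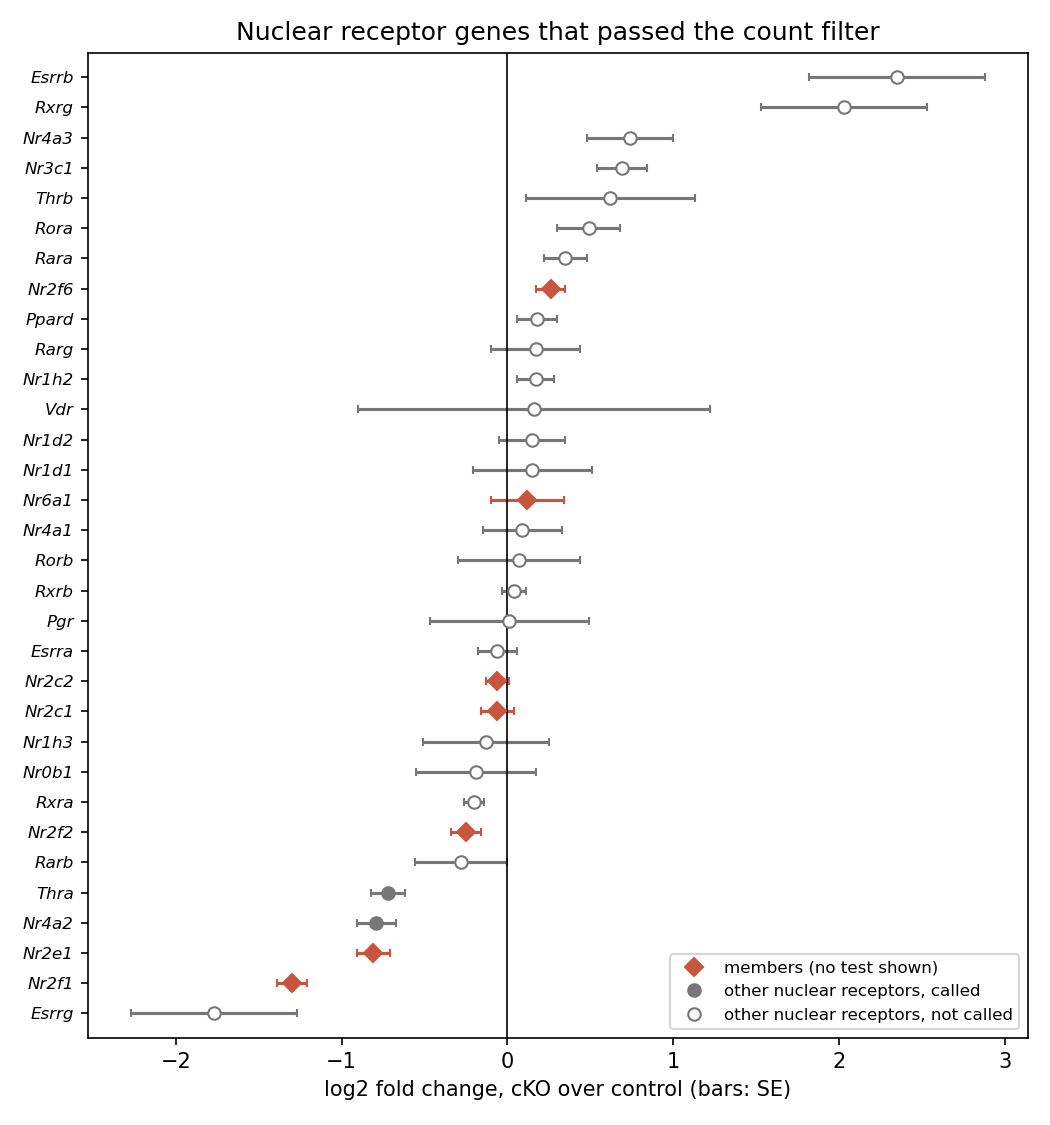
Log2 fold change (cKO over control) of the 7 members and the 25 other nuclear receptor genes that passed the count filter; bars are SE, diamonds are the members, shown with no test, and filled circles are other receptors called at an adjusted p under 0.05. Nr2f1 lies at −1.30 and Nr2e1 at −0.81, and the filled circles are Nr4a2 (−0.79) and Thra (−0.72).

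Coregulators through which these receptors act, such as the corepressors Ncor1 and Rcor2 and the demethylase Kdm1a, were all measured. None of the 25 was called by edgeR, DESeq2 or limma-voom, and the median log2 fold change was −0.03. In edgeR 10 had an unadjusted p under 0.05, 7 lower and 3 higher, against 2495 of all 14235 genes tested. The list was chosen with earlier results of these data known, so nothing is read from this count. The smallest p belonged to Zfpm2, a zinc finger cofactor of Nr2f2 (3.45 ± 0.63 to 1.55 ± 0.10 CPM, −1.15, SE 0.32, edgeR adjusted p = 0.12), and the coactivator gene Ncoa3 (73.1 ± 5.6 to 60.4 ± 4.7 CPM, −0.28, SE 0.08, 0.13). Without control replicate 2, 3 were called, the zinc finger genes Bcl11a and Bcl11b lower and Nrip1 higher, named after their values were seen. Control replicate 1 had 1337 counts of Bcl11a and the other libraries 493 to 690.

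Genes that other work ties to the members as targets were examined as 4 short lists, chosen with earlier results of these data known. Of 20 tested genes 6 were called lower and 0 higher, against 2.13% and 1.57% of all genes tested. Because of that choice, nothing is read from these shares. The median log2 fold change was −0.29. DESeq2 and limma-voom also called 0 higher, and 1 gene was higher at an unadjusted p. Of 9 genes linked to Nr2f1 and Nr2f2, Pax6, which encodes a homeodomain factor of dorsal progenitors (213 ± 7.2 to 105 ± 0.62 CPM, −1.03, SE 0.05, edgeR adjusted p = 0.00034), and the receptor gene Notch1 (204 ± 23 to 144 ± 2.6 CPM, −0.51, SE 0.08, edgeR adjusted p = 0.017) fell. Notch1 was no longer called when cKO replicate 1 (adjusted p = 0.055) or 2 (0.064) was left out, and without control replicate 2 Nrp2, Fezf2 and Bcl11b were called lower as well, named after their values were seen. Of 7 tested genes linked to Nr2e1, 2 were called lower, among them the ligand gene Wnt7a (24.9 ± 3.5 to 9.46 ± 0.17 CPM, −1.40, SE 0.15, edgeR adjusted p = 0.0044). Cdkn1a, a cell cycle inhibitor gene described as repressed by Nr2e1, had a log2 fold change of 0.68 (SE 0.22), was not called, and was named after its values were seen. When control replicate 1 was left out, Cdkn1a reached 1.07 and was called higher (edgeR adjusted p = 0.031).

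The embryonic globin genes Hbb-y and Hbb-bh1, linked to Nr2c1 and Nr2c2, both fell. Hbb-y had a mean of 1209 ± 14 CPM in the control group and of 745 ± 52 CPM in the cKO group, or −0.70 on the log2 scale (SE 0.05, edgeR adjusted p = 0.0014), and Hbb-bh1 had 824 ± 76 and 518 ± 4.3 CPM, with −0.67 (SE 0.06, 0.0031). They moved with the erythroid list as a whole, of which they are members: 6 of 10 tested genes were called lower and 0 higher by each of the 3 tools and 0 higher at an unadjusted p, with a median of −0.67. The erythroid sum was 2866 and 3087 CPM in the control and 1907 and 1819 CPM in the cKO libraries, and Hba-a1, Hba-a2, Hbb-bt and Hbb-bs were listed at 0. Whether these 4 genes were absent or their reads were lost in the counting was not tested. The part of blood content in the globin values was not tested. Of the 4 genes linked to Nr6a1, the pluripotency factor gene Pou5f1 had 0 counts in all libraries, which allows up to 3 counts in each. Only Gdf9 passed the count filter (−1.16, SE 0.63, edgeR adjusted p = 0.40).

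The rule for the members did not use the genes next to them, but these were found through members chosen with this contrast in view. Within 100 kb of the 7 gene spans lay 54 other genes in RefSeq, of which 28 were tested. Of the tested neighbours 3 were called lower and 1 higher, against 2.13% and 1.57% of all genes tested. Nothing is read from these shares. Both tested neighbours of Nr2f1 fell. Fam172a, 22.7 kb away, had 66.1 and 68.5 CPM in the control and 37.9 and 36.4 CPM in the cKO libraries (−0.86, SE 0.07, edgeR adjusted p = 0.0018). A830082K12Rik, whose span overlaps that of Nr2f1 from the other strand, had 12.8 and 10 against 5.73 and 5.26 CPM (−1.05, SE 0.19, edgeR adjusted p = 0.033). It shares 103 exon bases with Nr2f1, where reads cannot be told apart without strand. Leaving out control replicate 1 (adjusted p = 0.13) or either cKO library (0.081 and 0.15 for replicates 1 and 2) ended this call.

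Near Nr2f2 the 2 tested neighbours were long non-coding RNAs. Gm29683, 14.1 kb away, had 7.56 and 5.94 CPM in the control and 3.01 and 2.72 CPM in the cKO libraries (−1.23, SE 0.24, edgeR adjusted p = 0.041), without an overlap of the groups. It was not called when control replicate 1 (adjusted p = 0.17), or replicate 1 (0.10) or 2 (0.19) of the cKO, was left out. B130024G19Rik, whose span overlaps Nr2f2, was at 5.64 and 5.94 against 4.88 and 4.91 CPM (−0.24, SE 0.20, edgeR adjusted p = 0.61). None of the 3 tested neighbours of Nr2e1 (Afg1l, Snx3 and Ostm1) was called, and their log2 fold changes ran from −0.27 to 0.22. The gene called higher was Trh, the thyrotropin-releasing hormone gene 69 kb from Nr2c2, with 6 and 15 counts in the control and 93 and 201 counts in the cKO libraries (3.80, SE 0.51, edgeR adjusted p = 0.011). Nr2c2 itself had a log2 fold change of −0.06. Neighbours of Nr2f6, Nr2c1 and Nr6a1 gave 0 calls among 10, 2 and 5 tested.

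**Figure D5:**
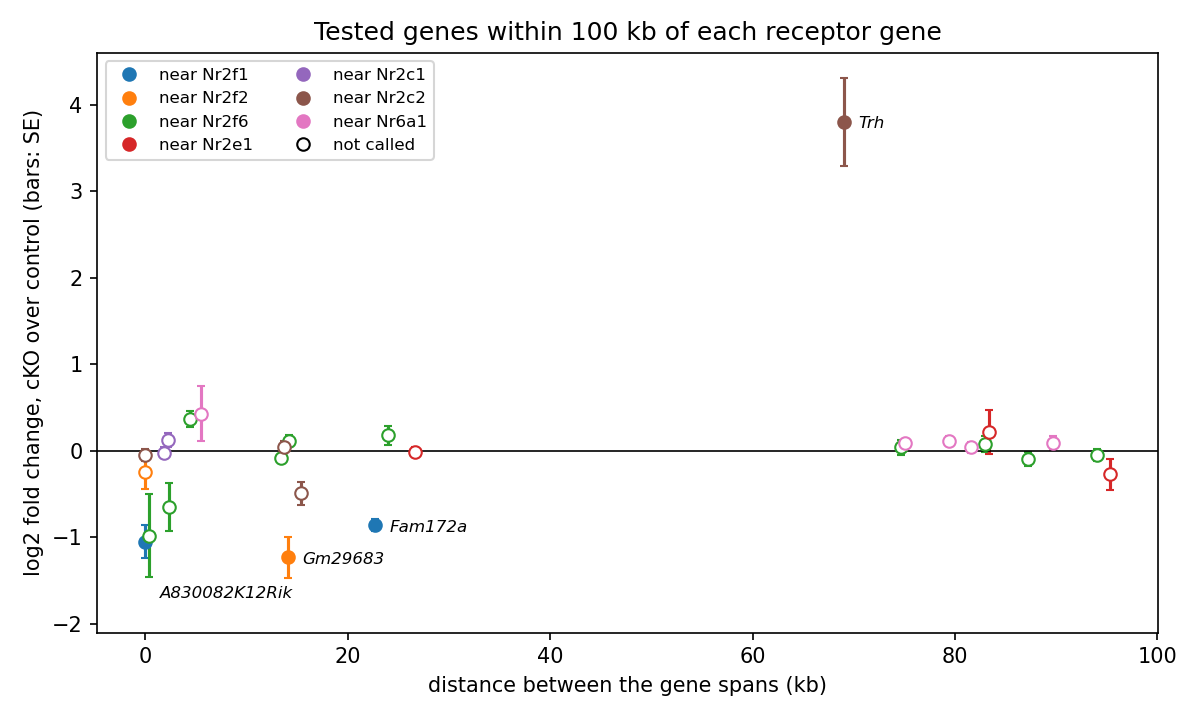
Log2 fold change (cKO over control, bars SE) of the 28 tested genes within 100 kb of a member, against the distance between the gene spans; color gives the member and filled points were called. Trh stands alone at 3.80, and Fam172a, A830082K12Rik and Gm29683 lie between −0.86 and −1.23 near Nr2f1 and Nr2f2.

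The promoter sequences of the COUP-TF pair are shown because these genes, alike in coding sequence, differ in the bases before the annotated starts used here. The 250 bases before the annotated start follow, from RefSeq on GRCm38.p6, with each CG dinucleotide in capitals. They are chr13:78198874-78199123 for Nr2f1 and chr7:70366747-70366996 for Nr2f2, both read on the minus strand.
Nr2f1: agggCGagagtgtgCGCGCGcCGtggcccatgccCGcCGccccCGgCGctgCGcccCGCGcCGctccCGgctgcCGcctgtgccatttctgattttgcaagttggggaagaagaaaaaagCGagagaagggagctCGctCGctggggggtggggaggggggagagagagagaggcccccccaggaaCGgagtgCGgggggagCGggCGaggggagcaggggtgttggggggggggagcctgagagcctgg
Nr2f2: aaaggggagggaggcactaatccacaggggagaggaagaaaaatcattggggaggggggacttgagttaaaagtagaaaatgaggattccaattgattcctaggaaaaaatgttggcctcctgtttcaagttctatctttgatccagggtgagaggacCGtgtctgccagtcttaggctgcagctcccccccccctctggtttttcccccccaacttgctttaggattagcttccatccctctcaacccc

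The Nr2f1 window held 22 CG dinucleotides and 72% G and C, and the Nr2f2 window 1 and 50%. A second annotated start of Nr2f1 had 2, so the contrast holds for these starts and not for the genes as such. The Nr2f2 window lies before the start at 70366746, upstream of the exon with its finger codons (70360027 to 70360095). No other start of Nr2f2 was examined. The median over 32851 windows of this length was 6. Nr2e1 had 15, Nr2c1 20, Nr2c2 18 and Nr2f6 42, while the windows of the 2 Nr6a1 starts had 4 and 7. The letters AGGTCA, the core that most of these receptors bind, and AAGTCA, the core of Nr2e1, were searched on both strands of the same 250 bases. AGGTCA occurred in 14.0% of all windows and, among those of the members, in the window of the second Nr6a1 start alone, which held 2 matches. AAGTCA occurred in 13.1% of all windows and in no window of a member. The direct repeat AGGTCANAGGTCA, which contains AGGTCA, occurred in 0.033% of windows and in no window of a member. No match says only that these letters are not in these windows.

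The genes whose levels ran most like those of Nr2f1, Nr2e1 and Nr2f2 were found by the Euclidean distance between log2 CPM values, each centred on its own mean over the 4 libraries, among 10419 genes. For Nr2f1 they were the Wnt ligand gene Wnt7a (distance 0.092), the bHLH-PAS factor gene Npas3 (0.105) and Apc2, a relative of the tumour suppressor Apc (0.120). Wnt7a had 27.4 and 22.4 CPM in the control and 9.58 and 9.35 CPM in the cKO libraries. For Nr2e1 they were Plcxd2 (0.065), Aim2 (0.070) and the dachshund family gene Dach1 (0.086), the last with 151 and 131 against 85.7 and 71.8 CPM. For Nr2f2 they were the chloride channel gene Clcn1 (0.034), Nicn1 (0.044) and the phosphodiesterase gene Pde10a (0.044). Nr2e1 was at rank 80 in likeness to Nr2f1 (distance 0.496) and Nr2f2 at rank 938 (1.08). The distances rest on 4 libraries that share the Chd7 contrast, and they are a description.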

How the data were processed

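RNA-seq of mouse forebrain at E10.5 was compared between 2 cKO and 2 control libraries. Per the submitters' processing notes, HISAT2, featureCounts and DESeq2 were used with mm10. Per the file headers, the deposited values are raw read counts, made with featureCounts 2.0.1 from paired-end reads over exons of a RefSeq annotation and summed for 24982 genes. No strand option was set. The authors' comparison table holds their log2 fold changes with SE, p-values, a Wald score and a normalized signal (counts divided by 1 factor per library, 0.990 to 1.013). Only its log2 fold changes and SE are printed, where that table is named. Of the columns with per-sample values, 0 had no matching sample.

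The filterByExpr function, at a minimum count of 10, retained 14235 genes, and TMM factors scaled the libraries. The groups were compared in edgeR 4.0.16 under R 4.3.3 (glmQLFit and glmQLFTest, two-sided, no covariate), with Benjamini-Hochberg adjustment over all genes tested and calls at an adjusted p under 0.05. SE is the size of the log2 fold change over the root of F. Replicates differed beyond counting noise, with a chi-square per degree of freedom of 5.53 (control) and 4.65 (cKO). The test was tried on simulated data for 14068 genes and recovered 64.2%, 95.5% and 100% of those altered 1.5-fold, 2-fold and 4-fold, with 12 false calls among 185. The simulated spread followed the fitted dispersion trend, and only genes of at least 5 CPM were altered. In the data, Nr2f1, Nr2f2, Nr2f6, Nr2e1 and Nr6a1 varied more than that trend, and Nr2c1 and Nr2c2 less. The recovery holds for the simulated setting only.

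The members and lists were chosen with earlier results of these data known. Named were the members, Chd7, at most 6 called genes of each list (if none, the 2 of smallest p), neighbours within 100 kb and the 3 genes most like Nr2f1, Nr2f2 and Nr2e1. Other names are said to have been chosen after their values were seen. Some genes that this rule names are not reported here. Alternatives tried were limma-voom (limma 3.58.1), DESeq2 1.42.0, scaling by upper quartiles or by the size factors of DESeq2, a 5 CPM minimum on the mean, omission of the filter, a block for the replicate number and omission of each library. Exon lengths came from GENCODE M21 (GRCm38) transcripts matched to RefSeq, gene spans and promoters from RefSeq GRCm38.p6. Coding sequences were aligned with Biopython 1.88, and plots drawn with matplotlib 3.10.9.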

Additional observations from a re-analysis of the deposited data

How the results depend on the processing

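Over 11 alternatives the log2 fold change of Nr2f1 ran from −1.44 to −1.15, that of Nr2e1 from −0.94 to −0.66, that of Nr2f2 from −0.40 to −0.12 and that of Nr2f6 from 0.14 to 0.39. Those of Nr2c1 (−0.11 to 0.00), Nr2c2 (−0.13 to 0.02) and Nr6a1 (−0.21 to 0.56) reached or crossed 0. All are refits of the same 4 libraries, and the members were chosen on this contrast, so these ranges are a description. Leaving out 1 library moved the count of genes called higher, 223, to between 80 and 351, and the count called lower, 303, to between 131 and 418. Other nuclear receptors called, 2, ranged from 0 (without cKO replicate 2) to 4 (without control replicate 2), and coregulators called, 0, from 0 to 3 (without control replicate 2). The genes called higher were 121 without control replicate 1, 351 without control replicate 2, 143 without cKO replicate 1 and 80 without cKO replicate 2; those called lower were 179, 418, 191 and 131. These fits take the spread of the single remaining library from the other group.

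The replicate numbers are shared by both groups, and the deviations of same-numbered libraries had a correlation of −0.0531 across genes. With 2 libraries per group, 1 such value cannot decide whether equal numbers mark a pairing. With the replicate number as a block, 137 genes were called higher and 211 lower. The adjusted p of A830082K12Rik was 0.052 and that of Gm29683 0.066 in that fit. Under limma-voom Gm29683 was not called. Levels per kb of exon moved with the exon length used, because the same CPM values were divided by a different length. Counts under about 20 per library, as for Trh in the control, limit the precision of a fold change.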
